A study of Mus musculus with 32 samples.

Results

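The 37 genes described here make the lipid-linked sugar tree of N-glycosylation and transfer it to proteins. They were chosen as a list by symbol and not by a rule on measured values, but with earlier results of these data known. All 37 were found among the 12791 genes of the 10 mM glucose table and the 12053 genes of the 1 mM glucose table. RNA came from mouse embryonic fibroblasts in which the endogenous Acly gene, for the enzyme ATP-citrate lyase, had been knocked out. In every group the cells carried a vector: mCherry alone (KO), mCherry with human ACLY (WT), the same fusion with a nuclear export sequence (Cyto), or the fusion with added nuclear import sequences (Nuc). Cells were kept for 24 h in 10 mM or 1 mM glucose. There were 4 libraries of each construct in each medium, except that 3 Cyto libraries were analysed in 10 mM glucose. The Cyto library numbered 3 there, which the submitters called an anomaly, was not analysed here.

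It is not stated in the labels whether the libraries of a group were grown apart, or whether each construct entered cells more than 1 time. P-values therefore measure the spread between these libraries, and a construct cannot be told apart from the 1 cell line that may carry it. Where the ACLY fusions lay in the cell was not measured in these data. The media were separate batches and were normalized separately, so levels in 10 mM and 1 mM glucose cannot be compared, and only fold changes within a medium were. In these bulk samples, fewer cells that express a gene and less RNA per cell cannot be told apart.

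N-glycosylation attaches a preformed sugar tree to asparagines of proteins entering the endoplasmic reticulum (ER). The tree is built on dolichol, a membrane lipid, beginning on the cytosolic face of the ER membrane with N-acetylglucosamine and mannose, and is finished on the lumenal face with mannose and glucose from dolichol-linked donors. Oligosaccharyltransferase then moves the whole tree to the protein. ATP-citrate lyase makes acetyl-CoA, which feeds both the N-acetyl group of N-acetylglucosamine and the isoprenoid units of dolichol, and fibroblasts use the pathway for the collagens, fibronectin and receptors they make.

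The deposited values were read as log2 CPM, a measure of the reads of a gene adjusted for the size of its library. Acly was 5.63 to 6.12 in KO, 10.14 to 10.28 with WT, 9.67 to 9.89 with Cyto and 8.98 to 9.24 with Nuc in 10 mM glucose. In 1 mM glucose it was 5.19 to 5.43, 10.43 to 10.68, 10.41 to 10.55 and 8.87 to 9.05, so KO was below every other library in both media, as labelled. Whether reads of the human transgene were counted in this mouse gene was not tested. Depth is unknown because the values hold no counts. All 8 fibroblast markers were in both tables, with Thy1 the lowest, and none of the 6 epithelial markers was in either. Of the 4 endothelial markers Pecam1 and Tek in 10 mM and Tek in 1 mM glucose were listed at low levels, as was Cd68 of the 4 immune markers. Thy1 was low too, at 0.85 to 2.24 in 10 mM glucose, where Cd68 was 0.34 to 2.25. WT replicate 2 in 1 mM glucose stood apart: on the second principal component of all genes it lay at -53.4, against -38.7 to -36.3 for the other WT libraries. Some results of 1 mM glucose are given with and without it, among them the Alg5, Dad1 and Stt3a changes of WT against KO. Other WT values there include it, such as the changes of Gmppb and Ostc, and are not all repeated without it.

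In 1 mM glucose, Cyto and Nuc cells had more RNA of many of these genes than KO cells. In WT cells fewer members were higher, at a share nearer that of all genes. Genes with a limma adjusted p under 0.05 over the whole table are called higher or lower here. Against KO in 1 mM glucose, 14 of 37 members were higher and 5 lower in WT, where 29.7% and 28.5% of all genes were. In Cyto 20 were higher and 3 lower, beside 31.7% and 33.0% of all genes. In Nuc 21 were higher and 4 lower, beside 30.5% and 29.5%. The median log2 fold change of the 37 was 0.12 in WT, 0.33 in Cyto and 0.29 in Nuc, against medians of all genes of -0.00, -0.03 and -0.01. Called changes past 2-fold were seen for 3 members in WT, 7 in Cyto and 5 in Nuc, and all were higher. The share of all genes past 2-fold is not given here, so these counts only describe the members. Without WT replicate 2 the WT counts were again 14 and 5, and the share of all genes in that fit is not given here.

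In 10 mM glucose the members moved both ways, with shares near those of all genes. Against KO, 10 were higher and 9 lower in WT (20.6% and 20.2% of all genes), 8 and 5 in Cyto (19.6% and 18.9%), and 9 and 8 in Nuc (22.7% and 22.7%). The member medians were 0.03, 0.02 and 0.06 on the log2 scale, and no member changed by 2-fold. The 3 comparisons within a medium share the KO libraries and are set side by side, not as independent evidence of each other.

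**Figure D1:**
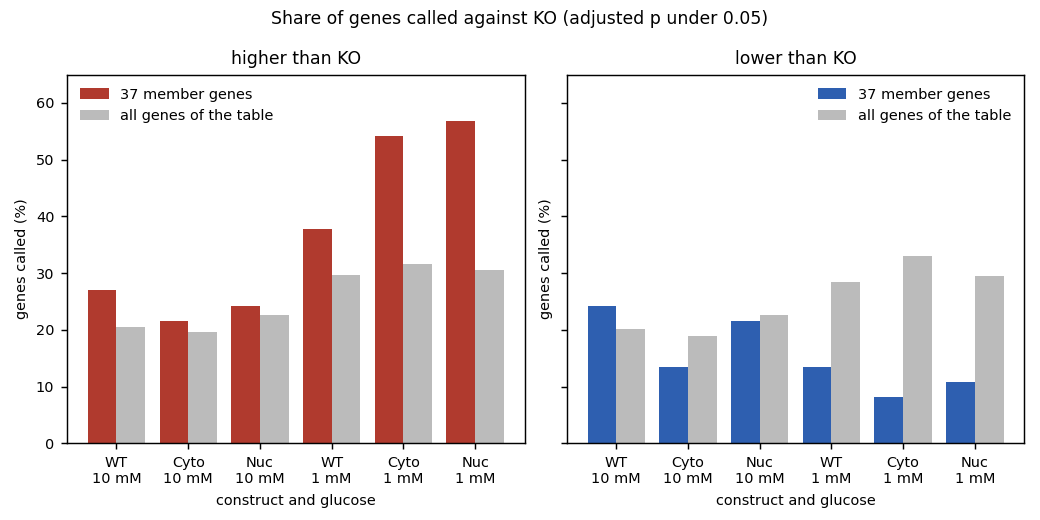
Percent of genes called higher (left) and lower (right) than KO at an adjusted p under 0.05, for the 37 member genes (red or blue bars) and all genes of the table (grey bars), by construct and glucose. In 1 mM glucose the red bars stand above the grey ones and the blue bars below them, most so in Cyto and Nuc, while in 10 mM glucose the pairs of bars differ less.

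**Figure D2:**
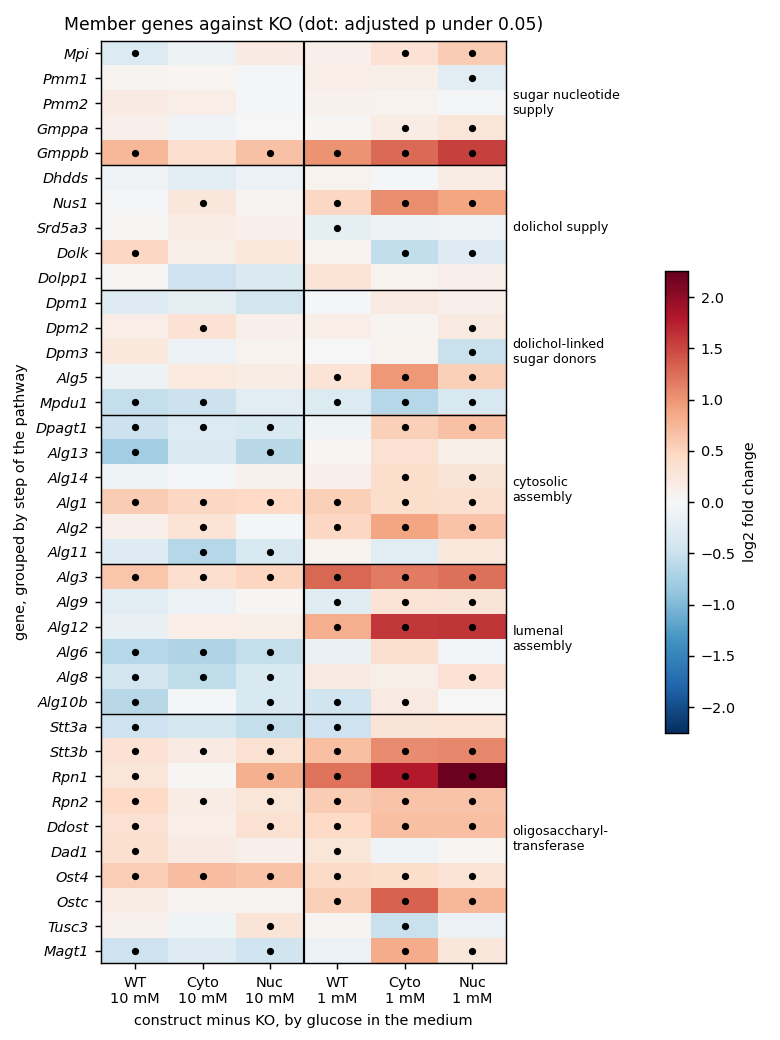
Log2 fold change against KO (colour) of each member (rows, grouped by step of the pathway) in WT, Cyto and Nuc in 10 mM and 1 mM glucose (columns). Black dots mark adjusted p under 0.05. Rpn1, Alg12, Gmppb, Alg3 and Stt3b are among the deepest red cells of the 1 mM columns, and Alg6, Alg8 and Mpdu1 are blue in most of the 10 mM columns.

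The sum of CPM over the 37 members describes them on a linear scale, weighted to the most abundant ones, such as Stt3a, Rpn2 and Rpn1. Sums over all genes in 1 mM glucose were 0.933 to 0.966 times the nominal CPM total for KO and 1.025 to 1.098 for WT. They were 0.973 to 0.994 for Cyto and 1.004 to 1.024 for Nuc. With 1 mM glucose it was 2751 to 2857 CPM for KO, 3218 to 3602 for WT, 4177 to 4498 for Cyto and 4236 to 4715 for Nuc. In 10 mM glucose it was 2866 to 2896 for KO, 2882 to 2971 for WT, 2808 to 2972 for Cyto and 2936 to 3100 for Nuc. The KO range lies below all others in 1 mM glucose, while Cyto spans it in 10 mM glucose.

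Per kilobase of transcript, the most abundant members were subunits of oligosaccharyltransferase, but not all of its subunits ranked high. In KO cells in 1 mM glucose the levels, in log2 CPM per kilobase, were led by Stt3a at 7.21 ± 0.12 (SD), Rpn2 at 6.98 ± 0.03 and Ddost at 6.55 ± 0.04. Pmm1, which is not a subunit, ranked 5 there, while the subunits Dad1 and Magt1 ranked 17 and 20. The lowest were Gmppb at 2.63 ± 0.08, Dolpp1 at 2.05 ± 0.43 and Alg6 at 1.29 ± 0.12. Rpn1 stood at 5.54 ± 0.10 in KO and 7.74 ± 0.14 in Nuc, where it ranked the highest, within 1 SD of Rpn2 at 7.62 ± 0.05. Lengths are medians over annotated transcripts, and which isoforms the cells made was not measured.

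Among the genes of sugar nucleotide supply, Gmppb, the catalytic subunit of GDP-mannose pyrophosphorylase, changed most. At 1 mM glucose its levels were 3.78, 3.68, 3.58 and 3.67 in the KO libraries, 4.55, 5.14, 4.59 and 4.49 with WT, 5.09, 4.83, 4.93 and 4.98 with Cyto and 5.20, 5.15, 5.30 and 5.23 with Nuc. Every library with an ACLY fusion lay above every KO library, and WT replicate 2 lay far above the other WT libraries. The log2 fold changes against KO were 1.01 ± 0.11 (adjusted p = 1.15e-06) in WT, 1.28 ± 0.11 (adjusted p = 4.08e-08) in Cyto and 1.54 ± 0.11 (adjusted p = 4.97e-09) in Nuc. With 10 mM glucose the levels were 3.27, 3.90, 4.14 and 4.09 in the KO libraries, 4.56, 4.53, 4.57 and 4.70 with WT, 4.19, 4.30 and 4.18 with Cyto and 4.31, 4.21, 4.68 and 4.88 with Nuc. KO was below the other groups there but spread over the widest range. Gmppb was higher in WT by 0.74 ± 0.17 (adjusted p = 0.0029) and in Nuc by 0.67 ± 0.17 (adjusted p = 0.00505), and the Cyto difference of 0.37 ± 0.19 did not pass the test (adjusted p = 0.135).

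Gmppb shares 937 exon bases with Rnf123 on the opposite strand in the GRCm38 annotation, and the strand setting of the counting is not known, so reads from the pair cannot be told apart. Rnf123 rose in 10 mM glucose, by 0.62 ± 0.15 in WT, 0.67 ± 0.16 in Cyto and 0.83 ± 0.15 in Nuc. With 1 mM glucose it gave 0.22 ± 0.10, 0.20 ± 0.10 and 0.17 ± 0.10, none past the test. Partner genes that share exons with members were chosen after their values were seen.

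The other supply genes moved less in 1 mM glucose. Mpi, the isomerase that leads fructose phosphate into the mannose branch, was 4.13, 4.33, 4.20 and 4.15 in KO and 4.68, 4.71, 4.81 and 4.87 in Nuc in 1 mM glucose. All Nuc libraries were above all KO libraries, with a log2 fold change of 0.57 ± 0.12 (adjusted p = 0.000439). In Cyto it was 0.33 ± 0.12 (adjusted p = 0.0199), a call lost without KO replicate 1, or Cyto replicate 2. Gmppa, the regulatory partner of Gmppb, rose by 0.28 ± 0.07 (adjusted p = 0.00265) in Nuc. Pmm1, a phosphomannomutase, was -0.26 ± 0.10 in Nuc, a call lost without KO replicate 1 or 2, or Nuc replicate 1 or 3. Pmm2, the other phosphomannomutase, was not called against KO in either medium.

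Of the 5 genes of dolichol supply, Nus1 rose with every ACLY construct in 1 mM glucose. Nus1 is the partner of Dhdds in the enzyme that builds the long polyprenyl chain. Its levels in 1 mM glucose were 6.72, 6.79, 6.75 and 6.73 in the KO libraries, 7.14, 7.35, 7.21 and 7.19 with WT, 7.64, 7.85, 7.85 and 7.85 with Cyto and 7.72, 7.55, 7.67 and 7.60 with Nuc. No library of WT, Cyto or Nuc overlapped KO, and WT lay between KO and the other constructs. The log2 fold changes were 0.47 ± 0.06 (adjusted p = 6.17e-06), 1.05 ± 0.06 (adjusted p = 2.59e-10) and 0.89 ± 0.06 (adjusted p = 2.45e-09). At 10 mM glucose only Cyto was called, at 0.26 ± 0.07 (adjusted p = 0.00573). Dhdds, the catalytic partner, ranged from -0.03 ± 0.09 to 0.17 ± 0.09 against KO in 1 mM glucose and was not called in any of the 6 comparisons with KO.

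Dolk, the kinase that makes dolichol phosphate, went the other way. In 1 mM glucose it was 4.68, 4.55, 4.81 and 4.64 in the KO libraries, 4.69, 4.76, 4.78 and 4.76 with WT, 4.10, 4.01, 4.24 and 4.11 with Cyto and 4.37, 4.41, 4.43 and 4.32 with Nuc. The Cyto and Nuc libraries lay below all KO libraries and Cyto below Nuc, while WT overlapped KO. Dolk fell by 0.55 ± 0.07 on the log2 scale in Cyto (adjusted p = 3.79e-06) and by 0.29 ± 0.07 in Nuc (adjusted p = 0.00243), and WT gave 0.08 ± 0.07 (adjusted p = 0.367). In the 10 mM medium Dolk was higher in WT, by 0.47 ± 0.12 (adjusted p = 0.00662). Srd5a3, a polyprenol reductase, was lower in WT in 1 mM glucose at -0.23 ± 0.09, a call lost without KO replicate 1, 2 or 3, or WT replicate 1 or 4, or with equal medians, or with quantile normalization, or in a fit of the compared groups alone. Dolpp1, a pyrophosphatase that recycles dolichol, was not called against KO in either medium.

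The dolichol-linked donors are dolichol phosphate mannose, made by the complex of Dpm1, Dpm2 and Dpm3, and dolichol phosphate glucose, made by Alg5. Alg5 was 4.56, 4.55, 4.56 and 4.66 in the KO libraries, 4.81, 5.23, 4.71 and 4.83 with WT, 5.51, 5.55, 5.56 and 5.59 with Cyto and 5.02, 5.18, 5.08 and 5.17 with Nuc in 1 mM glucose. The groups stood in the order KO, WT, Nuc and Cyto by their means, with WT replicate 2 above all Nuc libraries. The log2 fold changes against KO were 0.31 ± 0.09 (adjusted p = 0.00696) in WT, 0.97 ± 0.09 (adjusted p = 7.09e-08) in Cyto and 0.53 ± 0.09 (adjusted p = 8.28e-05) in Nuc. Without WT replicate 2 the WT change was 0.20 ± 0.06 (adjusted p = 0.00821), again called. Alg5 was not called against KO in 10 mM glucose, where values ran from -0.12 ± 0.09 to 0.22 ± 0.10.

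Mpdu1, needed for the use of both donors, was lower with ACLY in 5 of 6 comparisons with KO. With 1 mM glucose its levels were 5.74, 5.54, 5.62 and 5.73 in the KO libraries, 5.37, 5.55, 5.20 and 5.25 with WT, 5.31, 4.85, 4.87 and 5.02 with Cyto and 5.24, 5.27, 5.38 and 5.27 with Nuc. Cyto and Nuc did not overlap KO, and 1 WT library reached into the KO range. Relative to KO, the log2 changes were -0.31 ± 0.10 (adjusted p = 0.0122), -0.64 ± 0.10 (adjusted p = 2.39e-05) and -0.37 ± 0.10 (adjusted p = 0.00427). In 10 mM glucose they were -0.53 ± 0.13 (adjusted p = 0.00356) in WT and -0.49 ± 0.14 (adjusted p = 0.0103) in Cyto, and -0.26 ± 0.13 in Nuc, which did not pass the test (adjusted p = 0.117).

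Of the mannose donor complex, Dpm3, a small subunit that holds the catalytic one at the membrane, was lower in Nuc in 1 mM glucose. Its levels were 3.27, 3.25, 3.26 and 3.27 in KO and 2.66, 2.78, 2.82 and 2.79 in Nuc, with no overlap, and the log2 fold change was -0.50 ± 0.14 (adjusted p = 0.00606). Dpm2 was higher in Cyto in 10 mM glucose at 0.32 ± 0.10, a call lost without Cyto replicate 4, or in a fit of the compared groups alone, or without the number 4 libraries of 10 mM glucose. Without Cyto replicate 4 it was 0.20 ± 0.09 (adjusted p = 0.128). Dpm1, the catalytic subunit, was not called against KO in either medium. It shares 895 exon bases with the readthrough gene Gm20716 on the same strand, so its counts are uncertain.

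Assembly begins on the cytosolic face with Dpagt1, which puts N-acetylglucosamine phosphate on dolichol phosphate and is the target of tunicamycin. With 10 mM glucose Dpagt1 was 5.56, 5.55, 5.81 and 5.69 in the KO libraries, 5.14, 5.09, 5.17 and 5.28 with WT, 5.40, 5.30 and 5.34 with Cyto and 5.17, 5.18, 5.44 and 5.45 with Nuc. All KO libraries lay above all others. The limma fold changes, in log2, were -0.48 ± 0.09 (adjusted p = 0.00038) in WT, -0.30 ± 0.10 (adjusted p = 0.0184) in Cyto and -0.34 ± 0.09 (adjusted p = 0.00481) in Nuc. The Cyto call was lost without KO replicate 3, or Cyto replicate 2, or without the number 4 libraries of 10 mM glucose. At 1 mM glucose the levels were 5.46, 5.37, 5.51 and 5.43 in the KO libraries, 5.22, 5.55, 5.37 and 5.21 with WT, 6.07, 5.88, 6.04 and 5.90 with Cyto and 6.18, 6.14, 6.11 and 5.94 with Nuc. Here Cyto and Nuc lay above every KO library and WT overlapped KO. Dpagt1 rose by 0.53 ± 0.08 (adjusted p = 2.08e-05) in Cyto and 0.65 ± 0.08 (adjusted p = 2.76e-06) in Nuc, and WT gave -0.10 ± 0.08 (adjusted p = 0.277).

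Alg13 and Alg14 form the enzyme that adds the second N-acetylglucosamine. At 10 mM glucose Alg13, the catalytic subunit, was 4.31, 4.69, 4.42 and 4.19 in the KO libraries, 3.61, 3.69, 3.55 and 3.61 with WT, 4.14, 4.38 and 3.70 with Cyto and 3.75, 3.80, 3.90 and 3.70 with Nuc. WT and Nuc lay below every KO library and Cyto overlapped KO. The log2 fold changes were -0.79 ± 0.14 (adjusted p = 0.000261) in WT and -0.62 ± 0.14 (adjusted p = 0.00166) in Nuc, and -0.33 ± 0.15 in Cyto, which did not pass the test (adjusted p = 0.0977). In the 1 mM medium Alg13 was not called against KO. Alg14, its membrane anchor, rose by 0.39 ± 0.11 (adjusted p = 0.00514) in Cyto in 1 mM glucose. In Nuc it was 0.29 ± 0.11, a call lost without KO replicate 1, 2 or 4, or Nuc replicate 3 or 4.

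Alg1, Alg2 and Alg11 add the 5 cytosolic mannoses. Alg1, which adds the first of them, was higher than KO in all 6 comparisons, by 0.56 ± 0.09, 0.46 ± 0.10 and 0.44 ± 0.09 in 10 mM glucose and by 0.54 ± 0.09, 0.40 ± 0.09 and 0.37 ± 0.09 in 1 mM glucose in WT, Cyto and Nuc. The groups did not overlap KO in either medium. It shares 472 exon bases with Eef2kmt on the opposite strand, which rose by 0.50 ± 0.10, 0.44 ± 0.10 and 0.24 ± 0.10 in 1 mM glucose. In the 10 mM table Eef2kmt rose by 0.52 ± 0.13 in WT and 0.69 ± 0.14 in Cyto and was 0.25 ± 0.13 (adjusted p = 0.118) in Nuc, so in both media the reads cannot be told apart.

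Alg2, the next mannosyltransferase, was 5.82, 5.92, 6.03 and 6.06 in the KO libraries, 6.30, 6.54, 6.44 and 6.40 with WT, 6.80, 6.81, 6.94 and 6.82 with Cyto and 6.60, 6.54, 6.60 and 6.64 with Nuc in 1 mM glucose. Each ACLY group lay above KO, and Cyto above all others. Relative to KO, the log2 changes were 0.46 ± 0.07 (adjusted p = 1.33e-05), 0.89 ± 0.07 (adjusted p = 3.7e-09) and 0.64 ± 0.07 (adjusted p = 2.74e-07). In the 10 mM medium only Cyto was called, at 0.30 ± 0.08 (adjusted p = 0.00434). Alg11, which adds the last cytosolic mannoses, was lower in Cyto in 10 mM glucose at -0.64 ± 0.14 (adjusted p = 0.00139) and was not called against KO in 1 mM glucose. In Nuc in 10 mM glucose it was -0.35 ± 0.13, a call lost without KO replicate 2, or Nuc replicate 2, 3 or 4, or in a fit of the compared groups alone, or without the number 4 libraries of 10 mM glucose. Without KO replicate 2 it was -0.22 ± 0.11 (adjusted p = 0.121).

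On the lumenal face Alg3, Alg9 and Alg12 add mannose, and Alg6, Alg8 and Alg10b add glucose. The mannosyltransferases Alg3 and Alg12 rose strongly in 1 mM glucose. Alg12 was 3.90, 4.26, 3.99 and 4.29 in the KO libraries, 5.05, 4.97, 4.88 and 4.79 with WT, 5.63, 5.77, 5.74 and 5.67 with Cyto and 5.80, 5.70, 5.67 and 5.66 with Nuc. KO, WT and the Cyto and Nuc libraries formed 3 levels with gaps between them. The limma fold changes, in log2, were 0.82 ± 0.09 (adjusted p = 6.81e-07) in WT, 1.59 ± 0.09 (adjusted p = 1.25e-10) in Cyto and 1.60 ± 0.09 (adjusted p = 1.41e-10) in Nuc. Under 10 mM glucose the groups of WT and Nuc were 4.36 to 4.48 and 4.56 to 4.80, KO was 4.44 to 4.66, and none was called against KO, with log2 fold changes of -0.17 ± 0.09, 0.15 ± 0.10 and 0.12 ± 0.09 in WT, Cyto and Nuc.

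Alg12 was also the 1 member whose promoter window held the ER stress response element, CCAAT and CCACG with 9 bases of any kind between them, a motif known from genes of the unfolded protein response. Windows from RefSeq (GRCm38.p6, a build other than that of the tables) ran from 250 bases before to 50 bases after each start, and 31 of 37 members matched. Gmppb, Dpagt1, Alg2, Alg11, Ostc and Tusc3 had no entry. On both strands the element was in 1 of 31 members (3.23%) and in 37 of 27025 genes of the whole table (0.137%). It was in 5 of 12 ER stress markers (41.7%), a list that includes genes for which it is known. The second form of that element (ATTGG and CCACG with 1 base between), the unfolded protein response element core TGACGTGG and the ATF4 composite core TGATGNAAN were in none of the 31 members and in 0.0444%, 0.714% and 4.5% of all genes. A match is a description of letters, and no binding was measured. The bases before the Alg12 start, chr15:88819319-88819568 on the minus strand, are shown because they hold the site, with its fixed letters in capitals.
Alg12: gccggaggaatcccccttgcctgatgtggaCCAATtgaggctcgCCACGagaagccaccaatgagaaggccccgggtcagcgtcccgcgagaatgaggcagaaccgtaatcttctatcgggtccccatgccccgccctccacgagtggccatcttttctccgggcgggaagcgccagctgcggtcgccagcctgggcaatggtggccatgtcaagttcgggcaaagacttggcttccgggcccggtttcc
The site, chr15:88819520-88819538, lies 202 bases before the Alg12 start. It also lies 108 bases before the start of Creld2, an ER stress gene that faces the other way, 327 bases between the starts, so the pair shares it. The same site is thus counted both for the members and for the markers. The Alg12 site is set beside those of 2 markers, with the same letters in capitals.
Alg12: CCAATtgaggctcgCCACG
Hspa5: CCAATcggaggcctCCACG
Pdia6: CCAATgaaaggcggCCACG
Creld2 rose in 1 mM glucose by 3.17 ± 0.18, 4.26 ± 0.18 and 4.44 ± 0.18 in WT, Cyto and Nuc. It was named after its values were seen, because of the shared site.

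Alg3 adds the first lumenal mannose. In 1 mM glucose it was 4.01, 3.95, 4.12 and 4.11 in the KO libraries, 5.23, 5.55, 5.25 and 5.34 with WT, 5.33, 5.10, 5.34 and 5.10 with Cyto and 5.28, 5.41, 5.25 and 5.20 with Nuc. All ACLY libraries were above KO, and the 3 ACLY groups overlapped each other. The log2 fold changes were 1.30 ± 0.09 (adjusted p = 2.36e-09) in WT, 1.17 ± 0.09 (adjusted p = 3.83e-09) in Cyto and 1.24 ± 0.09 (adjusted p = 2.33e-09) in Nuc. With 10 mM glucose they were 0.62 ± 0.11 (adjusted p = 0.000325) in WT, 0.38 ± 0.12 (adjusted p = 0.0195) in Cyto and 0.48 ± 0.11 (adjusted p = 0.00206) in Nuc, and the Cyto call was lost without KO replicate 1, or Cyto replicate 1, or in a fit of the compared groups alone. Without Cyto replicate 1 it was 0.23 ± 0.12 (adjusted p = 0.143). Alg3 shares 143 exon bases with Eef1akmt4 on the opposite strand, which rose by 1.12 ± 0.12, 0.85 ± 0.12 and 0.58 ± 0.12 in 1 mM glucose and was not called against KO in 10 mM glucose, and reads in the shared bases cannot be told apart. Alg9, which adds mannose after Alg3, was lower in WT at -0.27 ± 0.07 (adjusted p = 0.00547) and higher in Cyto and Nuc by 0.31 ± 0.07 and 0.29 ± 0.07 in 1 mM glucose.

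**Figure D3:**
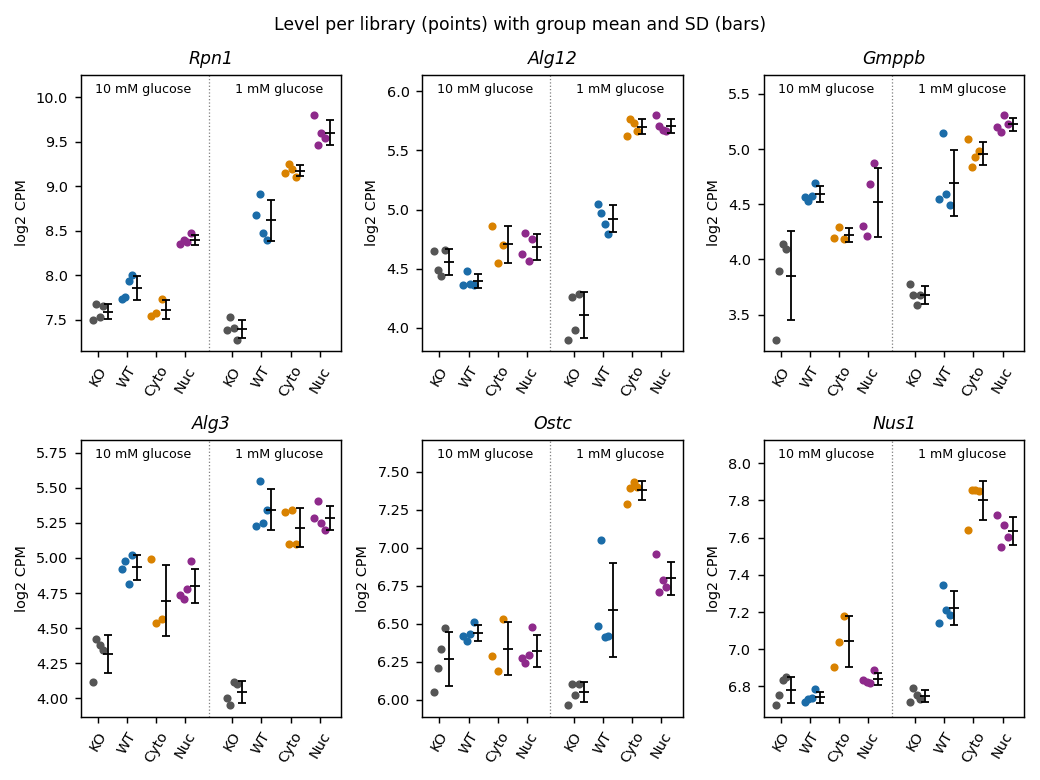
Log2 CPM (vertical axes, separate scale per gene) of Rpn1, Alg12, Gmppb, Alg3, Ostc and Nus1 in each library (points) by construct, in 10 mM (left) and 1 mM glucose (right of the dotted line), with the mean and SD beside each group. With 1 mM glucose every ACLY library of these genes lies above every KO library, and levels left and right of the line are not comparable.

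The glucosyltransferases were lower with ACLY in 10 mM glucose. Alg6, which adds the first glucose, was 4.18, 4.24, 3.91 and 4.46 in the KO libraries, 3.55, 3.85, 3.32 and 3.51 with WT, 3.43, 3.49 and 3.64 with Cyto and 3.49, 3.51, 4.20 and 3.45 with Nuc. WT and Cyto lay below every KO library, and Nuc replicate 3 lay inside the KO range. Relative to KO, the log2 changes were -0.64 ± 0.17 (adjusted p = 0.00711) in WT, -0.67 ± 0.19 (adjusted p = 0.00866) in Cyto and -0.53 ± 0.17 (adjusted p = 0.0183) in Nuc. The Nuc call was lost without KO replicate 4, or Nuc replicate 1, 2 or 4, or with arrayWeights, or without the number 4 libraries of 10 mM glucose, and the WT call without the number 4 libraries of 10 mM glucose. Alg8, the next glucosyltransferase, gave -0.42 ± 0.10, -0.57 ± 0.10 and -0.34 ± 0.10, all called. Alg10b, for the last glucose, was lower in WT at -0.63 ± 0.09 (adjusted p = 4.02e-05) and in Nuc at -0.35 ± 0.09 (adjusted p = 0.00546), and Cyto gave -0.05 ± 0.10 (adjusted p = 0.741).

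With 1 mM glucose Alg10b was again lower in WT, and no other fall of these 3 genes was called. Alg6 ranged from -0.15 ± 0.18 to 0.36 ± 0.18 and was not called. Alg8 rose in Nuc by 0.33 ± 0.09 (adjusted p = 0.00393). Alg10b was 8.09, 8.17, 8.13 and 8.09 in KO and 7.78, 7.40, 7.79 and 7.71 in WT, with WT below, and fell by 0.45 ± 0.08 on the log2 scale (adjusted p = 0.000184). In Cyto it was 0.20 ± 0.08, a call lost without KO replicate 1, 2, 3 or 4, or WT replicate 4, or Cyto replicate 2, 3 or 4, or Nuc replicate 2 or 3, or with no trend, or with equal medians, or with quantile normalization. Tested as 1 mM less 10 mM log2 fold changes, Alg8 differed between media in WT, Cyto and Nuc, by 0.62 ± 0.13, 0.70 ± 0.13 and 0.67 ± 0.13. Alg6 differed in Cyto, by 1.03 ± 0.27 (adjusted p = 0.00246), and Alg10b in Nuc, by 0.36 ± 0.13 (adjusted p = 0.0269), the last lost without KO replicate 1 in 10 mM glucose, or Nuc replicate 4 in 10 mM glucose, or Nuc replicate 1 in 1 mM glucose, or with quantile normalization. The other 4 differences of these genes did not pass the test.

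Oligosaccharyltransferase exists as complexes with Stt3a or Stt3b as the catalytic subunit. The Stt3a complex works on chains as they are made, with Ostc, and the Stt3b complex works on sites that were missed, with Magt1 or Tusc3, while Rpn1, Rpn2, Ddost, Dad1 and Ost4 belong to both. Of the 10 subunits, 7 were higher than KO in each ACLY construct in 1 mM glucose, and 1, 1 and 0 lower in WT, Cyto and Nuc, where 29.7%, 31.7% and 30.5% of all genes were higher and 28.5%, 33.0% and 29.5% lower. Rpn1, Rpn2, Ddost, Ost4, Stt3b and Ostc were among the 7 each time, joined by Dad1 in WT and by Magt1 in Cyto and Nuc. The Dad1 call and the Magt1 call in Nuc depended on single libraries. In 10 mM glucose 6, 3 and 6 of the 10 were higher and 2, 0 and 2 lower, beside 20.6%, 19.6% and 22.7% of all genes higher and 20.2%, 18.9% and 22.7% lower. The median log2 fold changes in 1 mM glucose were 0.43, 0.66 and 0.48.

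Rpn1, or ribophorin I, had the largest fold change of all 37 members in Cyto and Nuc in 1 mM glucose. Its levels were 7.38, 7.53, 7.41 and 7.28 in the KO libraries, 8.68, 8.91, 8.47 and 8.40 with WT, 9.15, 9.25, 9.20 and 9.10 with Cyto and 9.79, 9.46, 9.60 and 9.54 with Nuc. The groups stood in the order KO, WT, Cyto and Nuc with no overlap. The limma fold changes, in log2, were 1.22 ± 0.10 (adjusted p = 1.88e-08) in WT, 1.78 ± 0.10 (adjusted p = 1.01e-10) in Cyto and 2.20 ± 0.10 (adjusted p = 9.51e-12) in Nuc. At 10 mM glucose the levels were 7.50, 7.68, 7.54 and 7.66 in the KO libraries, 7.74, 7.75, 7.94 and 8.01 with WT, 7.54, 7.58 and 7.74 with Cyto and 8.35, 8.39, 8.37 and 8.47 with Nuc. Nuc stood above all other libraries, and Cyto overlapped KO. Rpn1 rose by 0.27 ± 0.07 (adjusted p = 0.00627) in WT and 0.80 ± 0.07 (adjusted p = 1.16e-07) in Nuc, and Cyto gave 0.02 ± 0.08 (adjusted p = 0.84).

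The other shared subunits moved less than Rpn1 in 1 mM glucose. Rpn2, or ribophorin II, rose in 1 mM glucose by 0.58 ± 0.06, 0.65 ± 0.06 and 0.64 ± 0.06 in WT, Cyto and Nuc, with no overlap with KO. Ddost, the subunit once named for the whole enzyme, rose by 0.44 ± 0.06, 0.68 ± 0.06 and 0.68 ± 0.06, also with no overlap. In 10 mM glucose Rpn2 rose by 0.45 ± 0.06 in WT and 0.26 ± 0.06 in Nuc, and Ddost by 0.34 ± 0.07 and 0.34 ± 0.07. The Cyto libraries of Rpn2 were 8.62 to 8.77 there, also above the 8.44 to 8.59 of KO. Ost4, a very small subunit, rose in both media, by 0.55 ± 0.11, 0.70 ± 0.12 and 0.64 ± 0.11 in 10 mM and 0.43 ± 0.09, 0.40 ± 0.09 and 0.30 ± 0.09 in 1 mM glucose. It shares 677 exon bases with Agbl5 on the opposite strand, called only in Cyto in 10 mM glucose among the comparisons with KO, at 0.61 ± 0.21. Dad1 rose in WT in 10 mM glucose by 0.35 ± 0.10 (adjusted p = 0.00902). In WT in 1 mM glucose Dad1 was 0.27 ± 0.10, a call lost without KO replicate 2 or 3, or WT replicate 2, or with quantile normalization, or in a fit of the compared groups alone. Without WT replicate 2 it was 0.15 ± 0.07 (adjusted p = 0.0692).

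Against KO, Stt3b was called higher with every ACLY construct in both media, while Stt3a was never called higher. Stt3b was 7.59, 7.60, 7.59 and 7.60 in the KO libraries, 8.37, 8.21, 8.33 and 8.17 with WT, 8.60, 8.77, 8.71 and 8.59 with Cyto and 8.77, 8.65, 8.69 and 8.62 with Nuc in 1 mM glucose. The KO libraries were nearly equal, WT lay above them, and Cyto and Nuc lay above WT. The log2 fold changes were 0.67 ± 0.06 (adjusted p = 4.81e-08) in WT, 1.07 ± 0.06 (adjusted p = 9.68e-11) in Cyto and 1.09 ± 0.06 (adjusted p = 9.38e-11) in Nuc. With 10 mM glucose the levels were 7.38, 7.49, 7.52 and 7.39 in the KO libraries, 7.76, 7.76, 7.77 and 7.77 with WT, 7.61, 7.64 and 7.67 with Cyto and 7.77, 7.83, 7.78 and 7.77 with Nuc. KO again lay below every other library. Stt3b rose by 0.32 ± 0.05 (adjusted p = 5.67e-05), 0.19 ± 0.05 (adjusted p = 0.00699) and 0.34 ± 0.05 (adjusted p = 2.19e-05) in WT, Cyto and Nuc.

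Stt3a was 9.12, 8.86, 8.66 and 8.51 in the KO libraries, 8.60, 8.21, 8.56 and 7.94 with WT, 8.34, 8.34 and 8.52 with Cyto and 8.50, 8.21, 8.51 and 7.76 with Nuc in 10 mM glucose. KO had the highest mean, but its lowest library lay within the range of the other groups. Relative to KO, the log2 changes were -0.46 ± 0.17 (adjusted p = 0.0419) in WT and -0.54 ± 0.17 (adjusted p = 0.0162) in Nuc, and -0.39 ± 0.18 in Cyto, which did not pass the test (adjusted p = 0.11). The WT call was lost without KO replicate 1 or 2, or WT replicate 2 or 4, or Cyto replicate 1 or 2, or with no trend, or with arrayWeights, or with length trends removed, and the Nuc call without KO replicate 1, or Nuc replicate 4. At 1 mM glucose Stt3a was 8.75, 8.92, 8.96 and 8.72 in the KO libraries, 8.78, 7.75, 8.49 and 8.47 with WT, 8.84, 9.24, 9.09 and 9.32 with Cyto and 9.31, 9.00, 9.00 and 9.30 with Nuc. WT replicate 2 was the lowest library, and WT overlapped KO. Stt3a was lower in WT at -0.47 ± 0.16 (adjusted p = 0.0223), a call lost without KO replicate 2 or 3, or WT replicate 2, or in a fit of the compared groups alone, or with length trends removed. Without WT replicate 2 it was -0.26 ± 0.11 (adjusted p = 0.0569). Cyto gave 0.29 ± 0.16 (adjusted p = 0.132) and Nuc 0.32 ± 0.16 (adjusted p = 0.107).

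As a description with no test, the log2 level of Stt3b minus that of Stt3a in the same library in 1 mM glucose averaged -1.24 ± 0.12 (SD) for KO, -0.10 ± 0.39 for WT, -0.46 ± 0.21 for Cyto and -0.47 ± 0.17 for Nuc. WT replicate 2 there stood at 0.46, against -0.40, -0.16 and -0.30 in WT replicates 1, 3 and 4. In 10 mM glucose the averages were -1.34 ± 0.28 for KO, -0.56 ± 0.31 for WT, -0.76 ± 0.08 for Cyto and -0.46 ± 0.35 for Nuc. These differences are not per length, and only their change between constructs can be read. In each medium the highest KO library was below the lowest library of every ACLY construct.

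Ostc, of the Stt3a complex, was 5.96, 6.10, 6.03 and 6.10 in the KO libraries, 6.48, 7.05, 6.41 and 6.42 with WT, 7.29, 7.39, 7.43 and 7.40 with Cyto and 6.96, 6.71, 6.78 and 6.74 with Nuc in 1 mM glucose. Cyto lay above all others, and WT replicate 2 stood above the Nuc libraries. The limma fold changes, in log2, were 0.54 ± 0.11 (adjusted p = 0.000468) in WT, 1.33 ± 0.11 (adjusted p = 1.6e-08) in Cyto and 0.75 ± 0.11 (adjusted p = 1.72e-05) in Nuc. With 10 mM glucose Ostc was not called against KO, with values from 0.05 ± 0.09 to 0.17 ± 0.09.

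Magt1 and Tusc3, the alternative thioredoxin-like subunits of the Stt3b complex, parted in Cyto in 1 mM glucose. Magt1 was 6.50, 6.49, 6.45 and 6.34 in the KO libraries, 6.41, 6.22, 6.40 and 6.23 with WT, 7.09, 7.40, 7.31 and 7.34 with Cyto and 7.06, 6.58, 6.61 and 6.57 with Nuc. Cyto lay above every other library, and Nuc replicate 1 stood well above the other Nuc libraries. Magt1 rose by 0.84 ± 0.10 (adjusted p = 1.26e-06) in Cyto. In Nuc it was 0.26 ± 0.10 (adjusted p = 0.0331), a call lost without KO replicate 3 or 4, or Nuc replicate 1, or with quantile normalization. Without Nuc replicate 1 it was 0.14 ± 0.08 (adjusted p = 0.135). WT gave -0.13 ± 0.10 (adjusted p = 0.272). Tusc3 was 6.05, 6.14, 6.17 and 6.30 in the KO libraries, 6.15, 6.53, 6.08 and 6.14 with WT, 5.63, 5.55, 5.78 and 5.70 with Cyto and 5.98, 6.08, 6.09 and 5.97 with Nuc. Cyto lay below every other library. Tusc3 fell by 0.50 ± 0.09 on the log2 scale in Cyto (adjusted p = 0.000108), and WT and Nuc gave 0.06 ± 0.09 and -0.14 ± 0.09, neither past the test.

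With 10 mM glucose Magt1 was lower in WT at -0.47 ± 0.11 (adjusted p = 0.00199) and in Nuc at -0.44 ± 0.11 (adjusted p = 0.00283), and Cyto gave -0.29 ± 0.11 (adjusted p = 0.0584). Tusc3 was higher in Nuc at 0.28 ± 0.10, a call lost without KO replicate 1, 2 or 3, or Nuc replicate 3 or 4, or in a fit of the compared groups alone. The level of Magt1 minus that of Tusc3 in the same library, with no test, in 1 mM glucose averaged 0.28 ± 0.18 (SD) for KO, 0.09 ± 0.29 for WT, 1.62 ± 0.17 for Cyto and 0.68 ± 0.27 for Nuc. At 10 mM glucose it was 0.69 ± 0.34, 0.11 ± 0.17, 0.50 ± 0.18 and -0.03 ± 0.39. The lowest Cyto library in 1 mM glucose, at 1.46, was above the highest library of any other construct there, at 1.08.

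**Figure D4:**
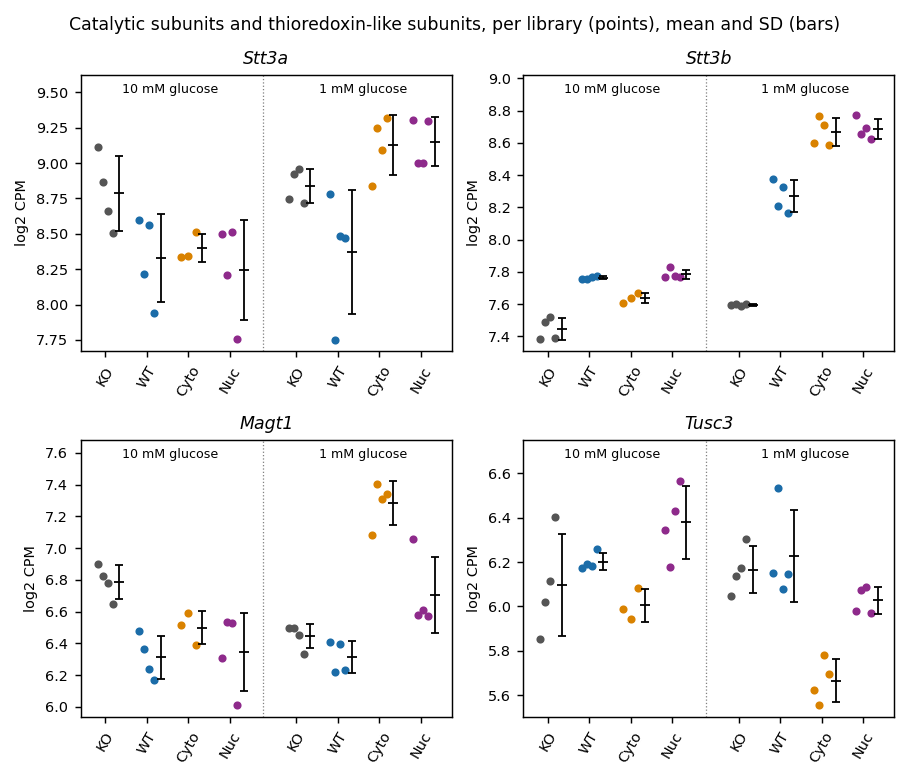
Log2 CPM (vertical axes) of the catalytic subunits Stt3a and Stt3b and of Magt1 and Tusc3 in each library (points) by construct, in 10 mM and 1 mM glucose, with the mean and SD beside each group. Stt3b lies higher with ACLY than in KO in both media, and in 1 mM glucose Cyto stands highest for Magt1 and lowest for Tusc3.

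The ACLY constructs were also compared with each other. In the 1 mM medium 14 members were higher and 4 lower in Cyto than in WT (25.7% and 27.5% of all genes), and 14 higher and 3 lower in Nuc than in WT (19.7% and 19.4%). The largest differences of Cyto from WT were 0.97 ± 0.10 (adjusted p = 4.83e-07) for Magt1, 0.79 ± 0.11 for Ostc, 0.78 ± 0.09 for Alg12 and 0.75 ± 0.16 for Stt3a among the higher. Dolk at -0.63 ± 0.07 (adjusted p = 1.63e-06), Tusc3 at -0.56 ± 0.09, Dad1 at -0.35 ± 0.10 (-0.23 without WT replicate 2) and Mpdu1 at -0.33 ± 0.10 were the 4 lower members, the Mpdu1 call lost in a fit of the compared groups alone. Nuc differed from WT by 0.98 ± 0.10 (adjusted p = 6e-07) for Rpn1, 0.79 ± 0.09 for Alg12, 0.78 ± 0.16 for Stt3a and 0.76 ± 0.08 for Dpagt1. The Stt3a differences from WT include WT replicate 2, its lowest library, and are not given without it. Dpm3 at -0.51 ± 0.14 (adjusted p = 0.00926), Pmm1 at -0.41 ± 0.10 and Dolk at -0.37 ± 0.07 were lower. Dpagt1 in Cyto was 0.64 ± 0.08 above WT, and Stt3b was 0.40 ± 0.06 above WT in Cyto and 0.42 ± 0.06 in Nuc. Without WT replicate 2 there were 20 higher and 5 lower members in Cyto and 18 higher and 3 lower in Nuc. Shares of all genes without it are not given here, so the rise is not read as a trait of the members.

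Between Nuc and Cyto in 1 mM glucose, 5 members were higher in Nuc and 7 lower (20.4% and 20.5% of all genes). Higher in Nuc were Alg11 by 0.48 ± 0.15, Rpn1 by 0.42 ± 0.10 (adjusted p = 0.002), Tusc3 by 0.36 ± 0.09 and Mpdu1 by 0.28 ± 0.10. The Alg11 call was lost without Nuc replicate 1, and the Mpdu1 call without Cyto replicate 2, 3 or 4, or Nuc replicate 2, 3 or 4. Lower in Nuc were Dpm3 at -0.58 ± 0.14 (adjusted p = 0.0034), Magt1 at -0.58 ± 0.10, Ostc at -0.58 ± 0.11 and Alg5 at -0.44 ± 0.09. Dpagt1, Stt3a and Stt3b differed by 0.12 ± 0.08, 0.03 ± 0.16 and 0.02 ± 0.06, none past the test. Without WT replicate 2, which adds to the estimate of the spread, 9 members were higher and 8 lower. The share of all genes in that fit is not given here either.

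At 10 mM glucose the ACLY constructs differed in few members, at or below the share of all genes. Nuc against Cyto gave 3 higher and 3 lower (15.3% and 15.7% of all genes). Rpn1 was 0.78 ± 0.08 (adjusted p = 9.53e-07) and Tusc3 0.37 ± 0.11 higher in Nuc, the latter lost without Cyto replicate 1 or 2. Stt3b was 0.15 ± 0.05, lost without WT replicate 1, 2 or 3, or Cyto replicate 1, 2 or 4, or Nuc replicate 1, 2 or 3, or with no trend, or in a fit of the compared groups alone, or with length trends removed. Alg2 was lower at -0.35 ± 0.08 (adjusted p = 0.00212), Alg10b at -0.30 ± 0.10 and Nus1 at -0.20 ± 0.07. The Alg10b call was lost without Cyto replicate 2 or 4, or Nuc replicate 4, or with no trend, or in a fit of the compared groups alone, or without the number 4 libraries of 10 mM glucose, and the Nus1 call without Cyto replicate 2 or 4, or Nuc replicate 1, 2 or 3, or with quantile normalization, or in a fit of the compared groups alone, or without the number 4 libraries of 10 mM glucose. Nus1 was -0.13 ± 0.07 (adjusted p = 0.183) without Cyto replicate 4. Without Cyto replicate 2 the 6 calls fell to 2, a fit for which the share of all genes is not given here. In a fit of the compared groups alone the calls fell to 3, where 27.3% of all genes were called.

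Cyto against WT in 10 mM glucose gave 5 higher and 2 lower (15.9% and 15.6% of all genes). Leaving out 1 library moved these counts from 4 in all without WT replicate 3 to 11 without KO replicate 1. Shares of all genes in those fits are not given here, so these totals only describe the members. With arrayWeights the counts were 6 higher and 9 lower, and in a fit of the compared groups alone 5 and 9. The count of lower members thus depends on the setting. Of all genes, 42.6% and 37.2% were called in these 2 settings, 21.4% and 18.9% as higher, so more of the whole table was called too. Alg10b was 0.59 ± 0.10 (adjusted p = 0.00027) and Nus1 0.30 ± 0.07 higher in Cyto, and Rpn2 was lower at -0.29 ± 0.06 (adjusted p = 0.0022). Alg12 was 0.31 ± 0.10 (adjusted p = 0.0285) higher in Cyto, a call lost without WT replicate 1, 3 or 4, or Cyto replicate 1 or 4, or without the number 4 libraries of 10 mM glucose. Alg13 was 0.46 ± 0.15, lost without WT replicate 1 or 3, or Cyto replicate 1 or 2, with 0.31 ± 0.15 without Cyto replicate 2. Alg5 was 0.35 ± 0.10, lost without Cyto replicate 1, and Rpn1 was -0.24 ± 0.08, lost without WT replicate 3 or 4, or Cyto replicate 1 or 2.

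Nuc against WT in the same medium gave 5 higher and 1 lower (15.0% and 13.8% of all genes). The total was 2 without Nuc replicate 2 and 3 without WT replicate 4. Shares of all genes in those fits are not given here. Rpn1 was 0.54 ± 0.07 (adjusted p = 2.55e-05) and Mpi 0.48 ± 0.12 (adjusted p = 0.00495) higher in Nuc. Alg12 was 0.29 ± 0.09 (adjusted p = 0.0302) higher, a call lost without WT replicate 1, 3 or 4, or Nuc replicate 2 or 4, or without the number 4 libraries of 10 mM glucose. Alg10b was 0.29 ± 0.09, lost without WT replicate 2 or 4, or Nuc replicate 1, 2 or 3, or with no trend, and Rpn2 was -0.19 ± 0.06, lost without WT replicate 4, or Nuc replicate 1 or 2, or with quantile normalization. Dpagt1, Stt3a and Stt3b were not called in either comparison with WT.

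Whether the effect of a construct differed between media was tested over 11931 shared genes, by subtracting the 10 mM log2 fold change from the 1 mM one. This difference is free only of batch effects equal in all constructs. For WT, 10 members were higher and 1 lower by this measure (13.5% and 12.7% of all genes), for Cyto 19 and 2 (21.5% and 23.2%), and for Nuc 19 and 2 (17.8% and 18.7%). The member medians were 0.21, 0.45 and 0.37, against -0.02, -0.03 and -0.02 over all genes.

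Alg12 and Rpn1 were among the 3 largest differences in each construct. For Alg12 they were 0.98 ± 0.12 (adjusted p = 6.06e-07) in WT, 1.44 ± 0.13 (adjusted p = 3.61e-10) in Cyto and 1.48 ± 0.12 (adjusted p = 1.91e-10) in Nuc. For Rpn1 they were 0.95 ± 0.12 (adjusted p = 9.09e-07), 1.75 ± 0.13 (adjusted p = 7.57e-12) and 1.40 ± 0.12 (adjusted p = 5.02e-10). Dpagt1, lower than KO in 10 mM and not lower in 1 mM glucose, differed by 0.38 ± 0.12, 0.84 ± 0.12 and 0.99 ± 0.12, all called. Stt3b differed by 0.35 ± 0.07, 0.88 ± 0.07 and 0.75 ± 0.07, all called. Stt3a differed in Nuc by 0.86 ± 0.25 (adjusted p = 0.00858), and its WT value of -0.01 ± 0.25 did not pass the test (adjusted p = 0.986). Its Cyto difference of 0.68 ± 0.26 was called. That call was lost without KO replicate 1 or 2, or Cyto replicate 1 or 2, in 10 mM glucose. It was also lost without KO replicate 1 or 4, or Cyto replicate 2 or 4, in 1 mM glucose.

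Ostc differed by 1.26 ± 0.15 (adjusted p = 1.25e-07) in Cyto. Alg13 differed by 0.84 ± 0.26 (adjusted p = 0.016) in WT. The difference was below 0 for Dolk, at -0.69 ± 0.14 (adjusted p = 0.000274) in Cyto, -0.53 ± 0.14 (adjusted p = 0.00314) in Nuc and -0.39 ± 0.14 (adjusted p = 0.0369) in WT, the last lost without KO replicate 1 or 2 in 10 mM glucose, or WT replicate 1 or 2 in 10 mM glucose, or KO replicate 1 or 3 in 1 mM glucose, or WT replicate 1 in 1 mM glucose, or in a fit of the compared groups alone. It was also below 0 for Tusc3, at -0.41 ± 0.14 (adjusted p = 0.0219) in Cyto and -0.42 ± 0.14 (adjusted p = 0.018) in Nuc. The Cyto call was lost without KO replicate 1 in 10 mM glucose, or Cyto replicate 4 in 10 mM glucose, and the Nuc call without KO replicate 1 in 10 mM glucose.

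For Nuc against Cyto, 0 members were higher and 4 lower (9.47% and 9.48% of all genes): Dpm3 at -0.80 ± 0.24 (adjusted p = 0.0199), Ostc at -0.57 ± 0.15 (adjusted p = 0.00893), Alg5 at -0.38 ± 0.13 (adjusted p = 0.0428) and Rpn1 at -0.36 ± 0.13 (adjusted p = 0.0476). With arrayWeights the count was 9, where 30.8% of all genes were called. The Dpm3 call was lost without Cyto replicate 1 in 10 mM glucose. The count fell to 2 without Cyto replicate 1 or 2 or Nuc replicate 2 or 3 in 10 mM glucose, or Cyto replicate 2 or 3 or Nuc replicate 3 in 1 mM glucose. Shares of all genes in those fits are not given here. The Alg5 call was lost without Cyto replicate 1, 2 or 4 in 10 mM glucose, or Nuc replicate 2, 3 or 4 in 10 mM glucose, or Cyto replicate 2, 3 or 4 in 1 mM glucose, or Nuc replicate 1 or 3 in 1 mM glucose, or with quantile normalization, or without the number 4 libraries of 10 mM glucose, and the Rpn1 call without KO replicate 3 in 10 mM glucose, or WT replicate 3 in 10 mM glucose, or Cyto replicate 1 or 2 in 10 mM glucose, or Nuc replicate 1, 2, 3 or 4 in 10 mM glucose, or KO replicate 1 or 3 in 1 mM glucose, or WT replicate 1 in 1 mM glucose, or Cyto replicate 1, 2 or 3 in 1 mM glucose, or Nuc replicate 2, 3 or 4 in 1 mM glucose, or with no trend, or with equal medians, or with length trends removed, or without the number 4 libraries of 10 mM glucose.

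**Figure D5:**
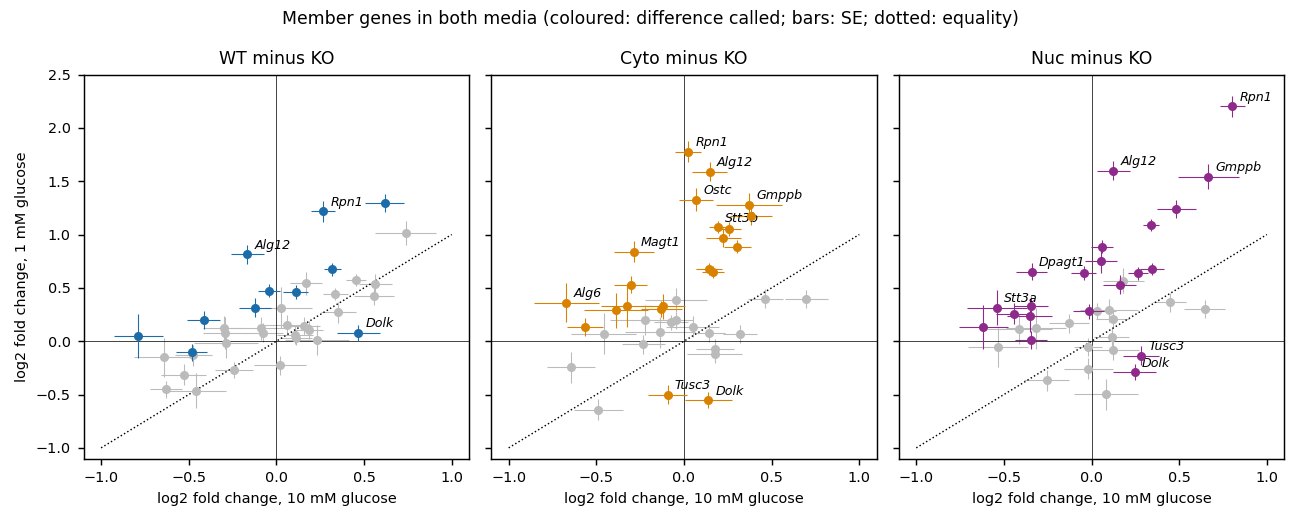
Log2 fold change against KO of the 37 members in 10 mM (horizontal) and 1 mM glucose (vertical) for WT, Cyto and Nuc, with SE bars. Coloured points have a difference between media with an adjusted p under 0.05, and the dotted line marks equal fold changes. Most coloured points lie above the line, and Dolk lies below it in each panel.

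Genes of neighbouring steps were counted on lists written for this work. Against KO in 1 mM glucose, 1, 3 and 3 of 5 other assembly and oligosaccharyltransferase genes were higher in WT, Cyto and Nuc, and 0, 0 and 1 lower, to be read beside 29.7%, 31.7% and 30.5% of all genes higher and 28.5%, 33.0% and 29.5% lower, which holds for every list here. Krtcap2, a subunit of the Stt3a complex, rose by 0.36 ± 0.08, 0.78 ± 0.08 and 0.41 ± 0.08. Of 15 genes of glucose trimming, lectin folding and mannose trimming in the ER, which act on the glycan after transfer, 11, 10 and 12 were higher and 1, 1 and 2 lower. Calr, the lectin chaperone calreticulin, rose by 1.63 ± 0.10, 2.26 ± 0.10 and 2.18 ± 0.10, and Edem1, which acts in disposal of misfolded glycoproteins, by 1.14 ± 0.07, 1.17 ± 0.07 and 2.07 ± 0.07. Of 18 genes of Golgi processing 7, 9 and 6 were higher and 4, 6 and 6 lower, in Nuc near the shares of all genes. Of 13 other users of dolichol phosphate mannose 3, 4 and 4 were higher and 4, 1 and 3 lower.

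All 14 ER stress response markers were higher than KO in each ACLY construct in 1 mM glucose, where 29.7%, 31.7% and 30.5% of all genes were. Their median log2 fold changes were 1.61 in WT, 2.54 in Cyto and 2.65 in Nuc, with Hyou1, an ER chaperone, at 1.85 ± 0.09, 3.28 ± 0.09 and 3.17 ± 0.09. In the 10 mM medium 9, 5 and 6 of the 14 were higher and 1, 0 and 1 lower (20.6%, 19.6% and 22.7% of all genes higher, 20.2%, 18.9% and 22.7% lower), with medians of 0.25, 0.16 and 0.21. They moved with the higher members in 1 mM glucose, and their part in the members' changes was not tested.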

How the data were processed

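RNA-seq of 31 mouse fibroblast libraries was analysed. The authors deposited 1 table of gene values in log2 per medium, read here as log2 CPM, and kallisto, edgeR, limma and the GRCm39 build are named in the submitters' processing notes. Versions, strand setting, depth and filters are not given in the sources used here. Values were used as deposited, and 1 entry without a symbol per table was left out. The lowest value was the same in every library of a table. The values summed to 0.952 to 1.03 (10 mM) and 0.933 to 1.10 (1 mM) times the nominal CPM total.

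Groups came from the labels. Constructs were compared within a medium by limma (version 3.58.1, R 4.3.3), with 1 fit per table, an intensity trend and Benjamini-Hochberg adjustment over the table, and differences between media in 1 fit of 8 groups. Fold changes carry limma's SE, and the script was tested on simulated data. The members, the lists and the tests were chosen with earlier results of these data known. The rule for members given with values was Dpagt1, Stt3a and Stt3b, and up to 4 called members in each direction per comparison with the largest fold change (3 for differences between media); others described under their role were added after their values were seen. From each other list up to 2 genes with the smallest adjusted p could be named per comparison, and some are left out. Exon overlaps and transcript lengths were taken by symbol from a GENCODE annotation of GRCm38. Alternatives were no trend, equal medians, quantile normalization, a pseudocount of 1 on linear values, a floor of 0 on the mean, arrayWeights, removal of trends on length, a replicate block, a fit of the groups compared alone, leaving out each library, and dropping all number 4 libraries of the 10 mM table.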

Additional observations from a re-analysis of the deposited data

Results flagged for a closer look

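In groups of 4 libraries, 1 library lay apart from the rest of its group by Dixon's criterion in 12 of 175 gene and group combinations (6.86%), where chance gives about 1 in 20. In WT replicate 2 in 1 mM glucose these were Gmppb at 5.14 log2 CPM (others 4.49 to 4.59), Ostc at 7.05 (6.41 to 6.48) and Tusc3 at 6.53 (6.08 to 6.15). In WT replicate 2 in 10 mM glucose they were Alg12 at 4.48 (4.36 to 4.37) and Alg1 at 5.98 (5.89 to 5.90). The others in 10 mM glucose were Stt3b at 7.83 in Nuc replicate 2, Alg6 at 4.20 in Nuc replicate 3, against 3.45 to 3.51, and Alg8 at 5.06 in KO replicate 2, against 5.32 to 5.37. The others in 1 mM glucose were Nus1 at 7.64 in Cyto replicate 1, against 7.85 in each other, Magt1 at 7.06 in Nuc replicate 1, against 6.57 to 6.61, Alg5 at 4.66 in KO replicate 4 and Alg2 at 6.94 in Cyto replicate 3.

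The effect of a construct differed between media by limma's test for 30 of the members' results given above, which are not all the members that passed; values are the 1 mM log2 fold change less the 10 mM one. For WT against KO these were Alg12 (0.98), Rpn1 (0.95), Alg13 (0.84), Dolk (-0.39), Alg8 (0.62), Dpagt1 (0.38) and Stt3b (0.35). For Cyto against KO they were Rpn1 (1.75), Alg12 (1.44), Ostc (1.26), Dolk (-0.69), Tusc3 (-0.41), Alg6 (1.03), Alg8 (0.70), Dpagt1 (0.84), Stt3a (0.68) and Stt3b (0.88). For Nuc against KO they were Alg12 (1.48), Rpn1 (1.40), Dpagt1 (0.99), Dolk (-0.53), Tusc3 (-0.42), Alg10b (0.36), Alg8 (0.67), Stt3a (0.86) and Stt3b (0.75). For Nuc against Cyto they were Dpm3 (-0.80), Ostc (-0.57), Alg5 (-0.38) and Rpn1 (-0.36). The media were separate batches, so a batch effect that differs between constructs cannot be told apart from an effect of glucose.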

How the results depend on the processing

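No called member changed direction in any alternative run, and 185 of 239 called member comparisons passed the test in every one. The total of members called moved by over 1.5 times for Nuc against Cyto in 10 mM glucose with only the groups compared in the fit (3), for Cyto against WT in 10 mM glucose with arrayWeights (15: 6 higher, 9 lower) or only the groups compared (14: 5 higher, 9 lower), and for the difference of Nuc against Cyto between media with arrayWeights (9). Of all genes, 27.3%, 42.6%, 37.2% and 30.8% were called in these runs, in the order given. The cause of the moves was not tested. Leaving out 1 library at a time gave, in 10 mM glucose, 17 to 19 members for WT, 11 to 15 for Cyto and 14 to 18 for Nuc against KO, 2 to 7 for Nuc against Cyto, 4 to 11 for Cyto against WT and 2 to 7 for Nuc against WT. In 1 mM glucose, in the same order, it gave 16 to 21, 20 to 26, 22 to 27, 10 to 17, 17 to 25 and 16 to 21. For the differences between media it gave 10 to 13 for WT, 18 to 21 for Cyto, 18 to 24 for Nuc and 2 to 6 for Nuc against Cyto. Shares of all genes are not given for these runs or for the replicate block below, so the totals only describe the members. The labels do not say that a replicate number pairs libraries, and not every pair with the same number correlated by over 0.1: residuals of such pairs gave -0.0255 to 0.359 (median 0.0523, 21 pairs) in 10 mM, against -0.226 to 0.129 (median -0.0125, 63 pairs) for different numbers, and -0.182 to 0.136 (24 pairs) in 1 mM glucose. The highest were among the number 4 libraries of 10 mM glucose, KO with Nuc at 0.359 and WT with Nuc at 0.232, which is a hint from the data. With the replicate block, totals in 10 mM glucose were 19, 15, 18, 7, 10 and 7, in 1 mM glucose 19, 21, 24, 11, 19 and 17, and for the differences 12, 21, 23 and 5, in the same orders. Depth is unknown, so no limit can be given for low genes such as Alg6, Alg13 and Dpm3.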
